A study of Mus musculus with 4 samples.

Results

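Gata4, Gata6, Inhbb, Ctsl, Kdr, Cdh5 and Acta2 are 7 genes known from testis cells other than germ cells, though not only from them. Each was named for at least 1 peak of the chromatin remodeller CHD4 in mouse cells labelled spermatogonial. The 7 genes were found by their gene symbols in the deposited peak list, and rows with the same position were joined into 1 interval. This gave 8 intervals of the 1849 in the list and 7 of its 1517 named genes. Gata4 had 2 intervals and each of the others had 1. The genes were chosen by these measured values, since each has a peak whose q for CHD4 over IgG passed the threshold of the caller. Presence in the list, fold and q are therefore given as a description, with no test.

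The peaks come from CUT&Tag, in which an antibody brings a transposase to a chromatin protein so that the DNA around it is cut and sequenced. There were 2 samples with the CHD4 antibody and 2 with a rabbit anti-mouse IgG as control, all from C57BL/6 mice described as wild type. The cells entered the assay as a suspension of digested testis. The sources used here give neither the age of the mice nor the step that separated spermatogonial cells from the rest. The table is 1 list for CHD4 against IgG with no value for a single sample, so no value below has an error between replicates.

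CHD4 is the motor subunit of NuRD, a nucleosome remodelling and deacetylase complex, which slides nucleosomes and removes acetyl groups from histones, and is often found at both promoters and enhancers. GATA4 and GATA6 are zinc finger transcription factors that bind the short DNA word GATA. In the testis GATA4 is a standard marker of Sertoli cells, the nurse cells of the seminiferous tubule. Blood vessels and a sheath of contractile peritubular myoid cells lie outside the tubule.

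The RefSeq promoter table (mouse build GRCm38.p6) covered 4 of the 7 genes: Inhbb, Ctsl, Kdr and Acta2. Its windows run from 250 bases before to 50 after a listed transcript start. Only the Ctsl window overlapped a CHD4 interval. The runs below are read 5′ to 3′ on the strand of the gene, and were chosen to show the CHD4 summit and the listed start at Ctsl and motif matches in the 3 windows with no interval. Capitals mark the summit base in the Ctsl summit run and the base listed as the start in the Ctsl start run. In the other runs capitals mark a match to the motif named.
Ctsl summit, chr13:64370566-64370595, minus strand: ttcatacaaaaggaaAggtatggctgaggt
Ctsl start, chr13:64370506-64370535, minus strand: acgcttttcttacagAaccaaggcaccacg
Inhbb GATA word, chr1:119422258-119422287, minus strand: tcctgccaacgtCTATCTcaacgcgcgcgc
Inhbb GC box, chr1:119422353-119422382, minus strand: ccgcctccccctCCGCCCccgggacgcccg
Kdr GC box, chr5:75978483-75978512, minus strand: ccggtaatgaccCCGCCCccattcgctagt
Acta2 E boxes, chr19:34255580-34255609, minus strand: tgtctgggCATTTGagCAGTTGttctgagg

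Motif words were searched on both strands of each 300-base window. The GATA words searched were of the form AGATAA or AGATAG as well as TGATAA or TGATAG, and any of them was present in 29.8% of 32817 RefSeq promoter windows. The Inhbb window held 1 GATA word and the Ctsl, Kdr and Acta2 windows held 0. The GC box GGGCGG, present in 35.6% of windows, occurred once in the Inhbb window, at 2 places in the Kdr window and at 0 in those of Ctsl and Acta2. The E box CANNTG, present in 72.3% of windows, was found at 3 places in the Acta2 window, once each in those of Ctsl and Kdr, and at 0 in that of Inhbb. The CArG box, the element of smooth muscle promoters, was present in 1.63% of windows and in none of these 4 in its strict form. Looser forms were not counted, so this does not show that the Acta2 promoter lacks the element. The Ctsl window, the only one of the 4 that overlapped a CHD4 interval, had 50% G and C, against 64.3% at Inhbb, 60.7% at Kdr and 54.7% at Acta2, and a median of 52.7% over all windows. The listed Ctsl start was 233 bp downstream of the start the authors assigned, so its window lay mostly downstream of that start. The same offset was 0 bp at Inhbb, 3 bp at Kdr and −37 bp at Acta2. The Ctsl values are therefore not from a stretch placed like the other 3.

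CHD4 intervals lay at or near a transcript start for Gata4, Ctsl and Gata6, and away from one for Inhbb, Kdr, Cdh5 and Acta2. Of the 8 intervals, 3 (37.5%) lay within 1 kb of the start the authors assigned, against 34.1% of all intervals. None of the 8 contained that start, against 15.7% of all intervals. All 8 had 1 summit, as did 1667 of the 1849. Their median width was 230 bp, with a range from 201 to 350 bp, against a median of 280 bp over the list.

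**Figure D1:**
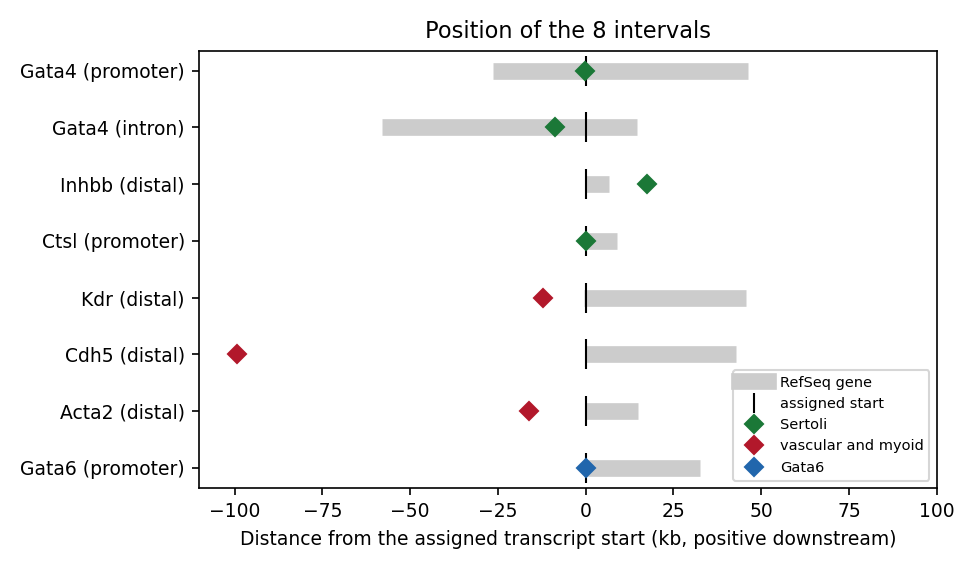
Midpoint of each of the 8 CHD4 intervals (diamonds) in kb from the transcript start assigned by the authors (black tick), with the RefSeq extent of the gene as a grey bar and positive values downstream. The Gata4 promoter interval, Ctsl and Gata6 sit at the start, Kdr, Cdh5 and Acta2 lie upstream of it, and Inhbb lies beyond the far end of its gene.

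Gata4 was the only member with a pair of intervals, and both lay inside the gene (chromosome 14, 63198914 to 63271712, minus strand, 72.8 kb). The promoter interval, at 63245422 to 63245622, was 201 bp wide and ended 151 bp upstream of a Gata4 transcript start. This start is not the outermost one: the interval lay 26.1 kb inside the 5′ end that RefSeq gives the gene. The intronic interval, at 63222121 to 63222447, was 327 bp wide and annotated to an intron of another transcript. It was 8.51 kb upstream of the start of a shorter Gata4 transcript and 22.8 kb downstream of the start beside the promoter interval.

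The Gata4 promoter interval held 39 CHD4 fragments at its summit (27.7 to 53.3, an exact 95% Poisson interval as in the other brackets of this kind below). The IgG expectation there was 4 fragments. The deposited fold, which the peak caller takes as CHD4 over IgG after adding 1 to both, was 3.54. The intronic interval held 16 fragments (9.15 to 26) over an expectation of 0.369, and its fold was 5.74. So the promoter interval had more CHD4 fragments and the intronic interval the higher fold. With counting error of the CHD4 fragments alone, the folds spanned 2.58 to 4.77 at the promoter and 3.59 to 8.87 in the intron, and these ranges overlap. Both passed a q of 0.01, with q of 0.0086 at the promoter and 0.0015 in the intron. Among the 631 promoter intervals of the list, 25.2% had a lower fold than the Gata4 promoter, and among the 1218 others, 70.6% had a lower fold than the Gata4 intron.

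Ctsl, the gene of the lysosomal protease cathepsin L, had the most CHD4 fragments of the 8 intervals and also the highest IgG expectation. Its interval (chromosome 13, 64370464 to 64370665, 202 bp) lay inside the gene, 88 bp downstream of the start the authors assigned. It contained the Ctsl start listed in the RefSeq promoter table, at 64370520. This listed start was 252 bp inside the outermost RefSeq start of the gene and 233 bp downstream of the start the authors assigned, and the transcript it belongs to was not resolved. The summit held 56 fragments (42.3 to 72.7) over an expectation of 5.91, which gave a fold of 3.62 and a q of 9.6e-05. In the whole list, 87.5% of intervals had fewer CHD4 fragments, 88.1% had a lower IgG expectation and 14.5% had a lower fold. Only the Gata4 promoter was lower in fold among the 8.

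Inhbb encodes the beta B subunit that activin B and inhibin B share. Its interval (chromosome 1, 119404551 to 119404900) was the widest of the 8 at 350 bp, and lay 17.3 kb downstream of the start, 10.6 kb past the far end of this 6.79 kb gene. No RefSeq gene overlapped it. The summit held 45 fragments (32.8 to 60.2) over an expectation of 3, with a fold of 5.07 and a q of 3.7e-06. It had no close neighbour: the next interval was 6.1 Mb away, against a median of 145 kb over the list. Of the nearest protein-coding genes, Gli2 lay 350 kb to one side and Ralb 65.4 kb away on the side of Inhbb, and neither was named for an interval.

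Kdr, which encodes the VEGF receptor VEGFR2 of endothelial cells, had the highest fold of the 8. The interval (chromosome 5, 75990353 to 75990681, 329 bp) lay 11.9 kb upstream of the Kdr start and inside the long non-coding RNA gene Gm32727. Its summit held 29 fragments (19.4 to 41.6) over an expectation of 0.738, with a fold of 7.73 and a q of 1.4e-07. This fold ranked 81 of 1849, and 95.6% of intervals were lower. Kdr also had the highest −log10 q of the 8, at 6.87. No other interval lay within 100 kb of the Kdr gene.

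Cdh5, the gene of VE-cadherin, the adhesion protein of endothelial junctions, had the weakest support. Its interval (chromosome 8, 104002152 to 104002367, 216 bp) was 99.3 kb upstream of the Cdh5 start, in a gap of 1.32 Mb between the protein-coding genes Cdh11 and Cdh5. The nearest annotated gene was the long non-coding RNA gene Gm32728, 8.7 kb away. The summit held 12 fragments (6.2 to 21), the lowest number in the list and shared by 49 intervals. The IgG expectation was 0.346, also the lowest in the list. This value is read as a floor set by the caller, and the fold of 4.57 then rests on no IgG fragment counted at the site. The q was 0.011, the only one of the 8 above 0.01.

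Acta2 encodes smooth muscle actin, the usual marker of peritubular myoid cells. Its interval (chromosome 19, 34271242 to 34271459, 218 bp) lay 15.9 kb upstream of the Acta2 start, inside the long non-coding RNA gene Gm31355. The site lies between Acta2 and Fas, the gene of a death receptor, whose start was 19.2 kb away on the other side. The assignment to Acta2 therefore rests on a difference of a few kilobases. The summit held 18 fragments (10.7 to 28.4) over an expectation of 0.554, with a fold of 5.61 and a q of 0.0015.

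Gata6 had a promoter interval, near the middle of the list in fold. The interval (chromosome 18, 11053077 to 11053318, 242 bp) lay inside the gene, 33 bp downstream of the start the authors assigned and 0.567 kb inside the outermost RefSeq start. The nearer edge of the long non-coding RNA gene Gata6os lay 510 bp away. The summit held 21 fragments (13 to 32.1) over an expectation of 1.11, with a fold of 4.75 and a q of 0.0026. Among promoter intervals 65.5% had a lower fold and 18.9% had fewer fragments. Against the Gata4 promoter, Gata6 thus had the higher fold from fewer fragments. The counting ranges of the folds, 3.12 to 7 at Gata6 and 2.58 to 4.77 at Gata4, overlap.

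**Figure D2:**
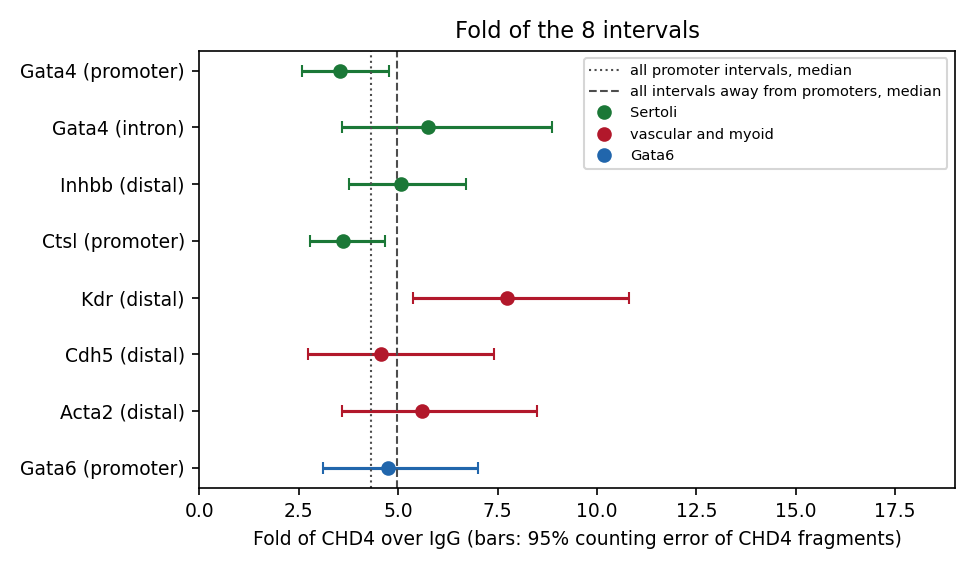
Fold of CHD4 over IgG for the 8 intervals, with bars for the 95% counting error of the CHD4 fragments only and lines for the median of all promoter intervals (4.32, dotted) and of all others (4.98, dashed). The folds run from 3.54 at the Gata4 promoter to 7.73 at Kdr.

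The 3 Sertoli genes and the 3 vascular and myoid genes differed in where their intervals lay. Of the 4 Sertoli intervals 2 lay at promoters, 1 in an intron and 1 in distal intergenic sequence, whereas all 3 vascular and myoid intervals were distal. Sertoli intervals lay 0.088 to 17.3 kb from their start, and vascular and myoid intervals 11.9 to 99.3 kb. Gata6 was placed like the Gata4 promoter and Ctsl. Distal intergenic intervals made up 24.7% of the list. With 4, 3 and 1 intervals chosen for having a peak, these are descriptions of 8 sites.

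Sertoli intervals had a higher median of CHD4 fragments and of IgG expectation, and a lower median fold, than the vascular and myoid ones. The median was 42 fragments in Sertoli intervals (range 16 to 56), 18 in vascular and myoid intervals (12 to 29) and 21 at Gata6. The median IgG expectation was 3.5 fragments in Sertoli intervals (0.369 to 5.91), 0.554 in vascular and myoid intervals (0.346 to 0.738) and 1.11 at Gata6. The median fold was 4.35 in Sertoli intervals (3.54 to 5.74), 5.61 in vascular and myoid intervals (4.57 to 7.73) and 4.75 at Gata6. The fold ranges of the 2 classes overlap: the Gata4 intron lay above Acta2 and Cdh5, and Inhbb lay above Cdh5. Ranges of fragments and of IgG expectation overlap too. The Gata4 intron, with 16 fragments over 0.369, lay below Kdr and Acta2 in both, and the other Sertoli intervals lay above all vascular and myoid ones.

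The classes also differed in location, and whether location has a part in the difference in fold was not tested. Away from promoters, a subset chosen after seeing the values, the median fold was 5.41 for the 2 Sertoli intervals and 5.61 for the 3 vascular and myoid ones. Over the whole list promoter intervals had a median fold of 4.32, 34 CHD4 fragments and an IgG expectation of 2.4, against 4.98, 25 and 1.0 for the others. By −log10 q the order turned round, with a median of 3.42 in Sertoli intervals and 2.83 in vascular and myoid ones.

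**Figure D3:**
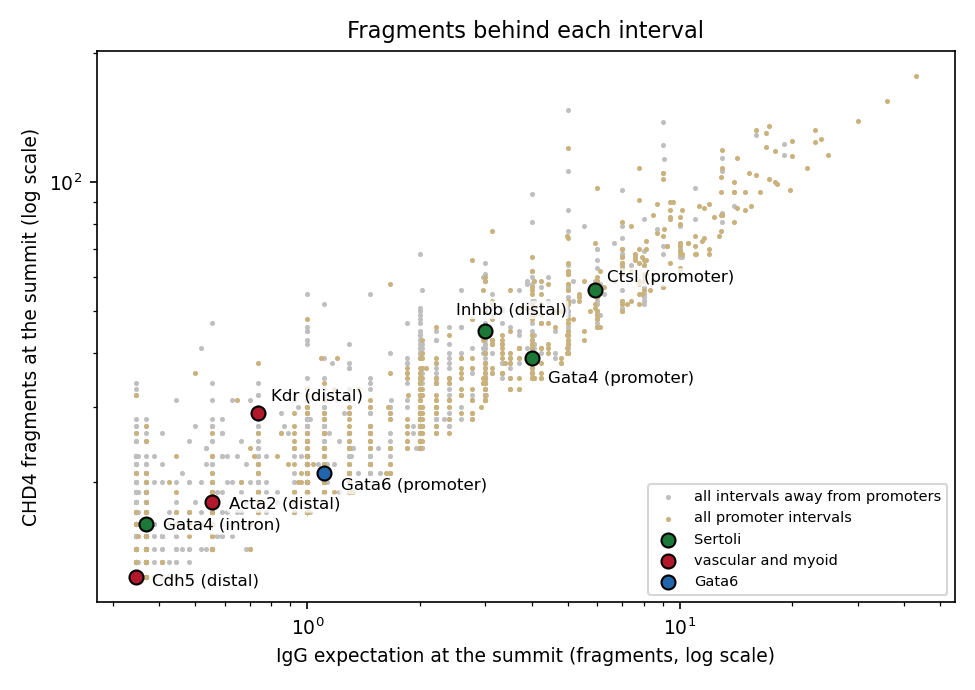
CHD4 fragments against IgG expectation at the summit of each of the 1849 intervals, on log axes, with the 8 described intervals in colour by class. Ctsl, Inhbb and the Gata4 promoter lie towards the upper right with 39 to 56 CHD4 fragments, and Cdh5 sits at the lowest value of both axes.

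The IgG expectations show how few control fragments stand behind these folds. Over the list, 832 of 2066 summits had a whole number of fragments as expectation, 131 sat at the floor, and 908 had a whole multiple of 0.1846, the step expected from 1 fragment in a window wider than the summit. On this reading, the expectation rested on 4 IgG fragments at the Gata4 promoter and 3 at Inhbb, counted at the summit. In the wider window it rested on 32 at Ctsl, 6 at Gata6, 4 at Kdr, 3 at Acta2 and 2 at the Gata4 intron. The window of Ctsl thus held more IgG fragments than those of the other 4 genes so measured together.

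Most markers of the cell types concerned had no CHD4 interval. Among all 21779 protein-coding genes, 6.10% were named for an interval, 2.57% for one within 1 kb of a start and 4.79% for one with q under 0.01, and the body of 4.29% overlapped an interval. The marker lists include the genes described above, which were chosen for having a peak, so nothing is read from counts that contain them. Of 24 Sertoli markers 4 were named, Gata4, Inhbb, Ctsl and Kitl, and without the chosen genes 1 of 21 (4.76%). Kitl, the stem cell factor made by Sertoli cells, had its interval 108 kb away, at a fold of 6.5. Sox9, Wt1, Amh, Fshr and Gdnf were among the 20 not named. Of 15 endothelial markers 3 were named, and 1 of 13 (7.69%) without Kdr and Cdh5. It was Flt1, which encodes VEGFR1, at 10.9 kb with a fold of 4.88. Of 15 myoid and smooth muscle markers 2 were named, and 1 of 14 (7.14%) without Acta2. It was Myocd, the coactivator of smooth muscle genes, in an intron with a fold of 4.8. Flt1 and Myocd each had 13 CHD4 fragments, and neither passed a q of 0.01. In each of these 3 lists the share without the chosen genes was near the 6.10% of all genes. None of 10 Leydig cell markers and none of 9 macrophage markers was named, where the share of all genes would give 0.61 and 0.55.

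Of 21 markers of spermatogonia, the labelled cell type, 1 was named (4.76%), where the share of all genes would give 1.3. It was Nanos3, which encodes a germ cell protein that binds RNA, with an interval 6.8 kb away and a fold of 3.4. Zbtb16, Gfra1, Id4, Ret and Kit were among the 20 not named. A CHD4 interval does not report whether a gene is expressed, and a count this near the background says nothing for or against the labelled cell type. The share of fragments that came from somatic cells cannot be read from this list and was not tested.

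Within the GATA family only Gata4 and Gata6 were named, out of 8 genes that also included Gata1, Gata2, Gata3, Gata5 and the GATA cofactors Zfpm1 and Zfpm2. Both had a promoter interval, a share of 25.0% against the 2.57% over all genes. Since the pair was chosen for having peaks, nothing is read from this share. The median fold of their 3 intervals was 4.75, against 4.76 over the list.

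In the activin and inhibin pathway 3 of 16 genes were named, and 2 of 15 (13.3%) without Inhbb, against 6.10% of all genes. Besides the ligand subunit gene Inhbb, they were the receptor gene Acvr2b, 83 bp from its start with a fold of 4.34 from 19 fragments, and Smad3, a transcription factor that carries the signal, in an intron with 4.31 from 17 fragments. Neither of these passed a q of 0.01, where 4.79% of all protein-coding genes were named for an interval with q under 0.01. The list is small and was chosen with earlier results known, so nothing is read from its share. Inha and Inhba, which encode the other subunits that pair with the Inhbb product, were not named. Among 15 genes for cathepsins and cystatin C, Ctsl was the only 1 named, which leaves 0 of 14 without it.

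In the VEGF, cadherin and actin lists 1 named gene, Mrtfb, had an interval within 1 kb of a start, and over the whole list 65.9% of intervals lay farther from one. Among VEGF ligands and receptors 4 of 10 were named, and 3 of 9 (33.3%) without Kdr, against 6.10% of all genes. These were Flt1, the ligand gene Pgf, at 8.61 kb with a fold of 4.14, and the co-receptor gene Nrp2, in an intron with 6.58 from 30 fragments. None of the 4 had an interval within 1 kb of a start. Among cadherins and partners of VE-cadherin 3 of 9 were named, and 2 of 8 (25.0%) without Cdh5. Ptprb, the endothelial phosphatase VE-PTP, had intronic intervals with folds of 4.59 and 6.16, and Ctnnd1, which encodes p120 catenin, had 1 at 2.19 kb with 4.64, which the authors annotated to the outer part of the promoter. Among actins and smooth muscle cofactors 4 of 10 were named, and 3 of 9 (33.3%) without Acta2. Mrtfb, a coactivator of the serum response factor, had a promoter interval of fold 4.17 from 56 fragments, Actb had 1 at 14.1 kb with the lowest fold of these lists, 2.64, and Myocd is described above. Flt1, Pgf, Myocd and Actb did not pass a q of 0.01. The counts in these lists are small, the lists share genes, and they were chosen with earlier results known. Nothing is read from their shares beside the 6.10% of all genes.

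**Figure D4:**
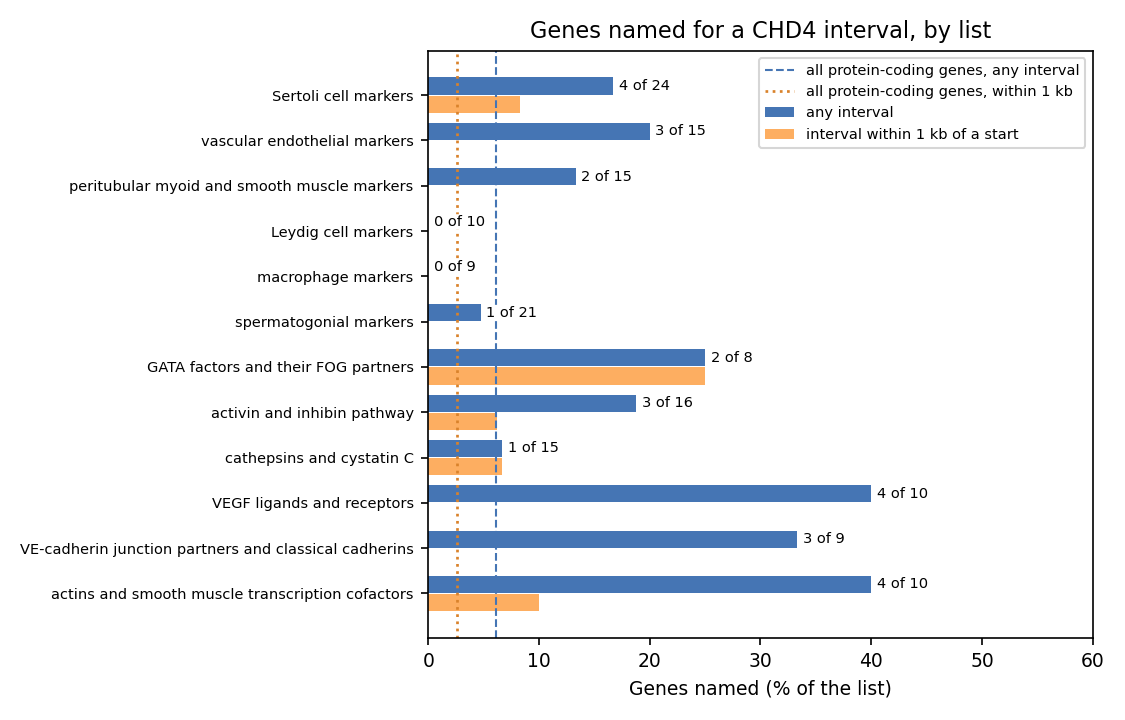
Share of each gene list named for any CHD4 interval (blue) and for 1 within 1 kb of a start (orange), with the counts of genes for any interval and dashed and dotted lines at the shares over all protein-coding genes, 6.10% and 2.57%. The bars include the 7 genes chosen for having a peak. Leydig and macrophage markers were at 0, and endothelial, myoid, spermatogonial, VEGF and VE-cadherin genes had bars for any interval only.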

How the data were processed

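CUT&Tag peaks of CHD4 over IgG in mouse testis cells were analysed from 1 deposited table. The submitters' processing notes name MACS2 2.1.2, Bowtie2 2.2.5, Trim Galore 0.5.0 and build mm10. Neither the order of steps nor how replicates were pooled or duplicates handled is recorded in the labels held here. Per the file headers, the authors give a fold (ratio) and its log2. The deposited −log10 p and −log10 q lost their headers and were identified by column order, since the deposited score equals the whole part of 10 times the latter at all 2066 summits. Other deposited columns are positions and an annotation by nearest transcript start.

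Rows with the same position were joined into 1849 intervals, each with the values of its summit of highest fold. Genes were matched by numeric identifier to a RefSeq table of GRCm38.p6, which shares the coordinates of mm10; 99.9% of identifiers were found, and genes in the first 3 Mb of each chromosome but Y were left out. CHD4 fragments and IgG expectation were recovered from the deposited fold and p. The model was that the caller scales CHD4 fragments to the IgG library, adds 1 to both sides for the fold and takes a Poisson p. A scale of 0.429 gave whole fragment numbers, within 0.005, at all 2066 summits. At this scale the CHD4 library held 2.33 times the fragments of the IgG library. In 33 summits, none of them of the 7 genes, more than 1 solution fitted and the closest was taken. At the best scale away from this one and its double, 30.3% of 300 sampled summits were solved. Those other scales were tried in coarser steps than the chosen one, so this share cannot show that the scale is the only one. The recovery was tested on simulated data. Poisson intervals (95%) cover counting error only; reads without molecular identifiers are not independent molecules, and total depth is unknown.

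The 7 genes and the gene lists were chosen with earlier results of these data known, and no tests were made on them. Named genes are all members, the listed genes with an interval, markers without one as examples, and annotated neighbours. Alternatives were another summit, a ratio without the added 1, −log10 q, stricter q, the higher-fold part of the list (925 intervals), other units, other promoter limits, and gene bodies. Python 3.11.15, pandas 2.3.3, NumPy 2.4.6, SciPy 1.17.1 and matplotlib 3.10.9 were used.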

Additional observations from a re-analysis of the deposited data

How the results depend on the processing

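The median fold of Sertoli minus that of vascular and myoid intervals was −1.26. It was −1.26 with the summit of highest −log10 q, −9.58 as a fragment ratio without the added 1, −2.32 with intervals of q under 0.01 and −0.204 away from promoters, the last 2 chosen after seeing the data. The difference reversed to 0.593 when −log10 q replaced the fold. The cause was not tested. Of the 8 intervals 7 had a q under 0.01 and 4 were among the 925 intervals of highest fold, 2 of the 4 Sertoli ones and 0 for Gata6. The number of intervals containing the transcript start was 0 against 3 at promoters, with 0 for Sertoli genes against 2, and 0 for Gata6 against 1. By gene bodies that overlap an interval, 3 of the 7 genes were left, Gata4, Ctsl and Gata6, and 0 of the 3 vascular and myoid genes. Summits as the unit or 1 interval per locus of 10 kb left the number at 8, and promoters within 3 kb left it at 3. With q under 0.01 the genes named numbered 1 for endothelial markers (against 3), 1 for myoid markers (against 2), 1 for the activin pathway (against 3), 2 for VEGF genes (against 4) and 2 for actins and cofactors (against 4). By gene bodies they numbered 2 for Sertoli markers (against 4), 0 for endothelial markers (against 3), 1 for myoid markers (against 2), 0 for spermatogonial markers (against 1), 1 for VEGF genes (against 4) and 2 for actins and cofactors (against 4). By promoter intervals they numbered 2 for Sertoli markers, 1 for the activin pathway, 1 for actins and cofactors and 0 for endothelial, myoid, spermatogonial, VEGF and VE-cadherin genes. The counts of these lists include the chosen genes. With q under 0.01 the only gene left was a chosen one for endothelial markers (Kdr), myoid markers (Acta2) and the activin pathway (Inhbb). Over all protein-coding genes the shares were 4.79% with q under 0.01, 4.29% by gene bodies and 2.57% by promoter intervals. No paired analysis was possible because the table holds no value for a single sample. For the same reason no replicate could be left out. Fragment numbers of 12 to 56 limit the precision of each fold.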

Other observations

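The lowest IgG expectation of the table, 0.346 fragments, was found at 131 of 2066 summits. In the vascular lists it occurred at Cdh5 and Flt1, with 12 and 13 CHD4 fragments, and at 1 Ptprb interval, with 17. The folds there, 4.57, 4.88 and 6.16, follow from the CHD4 fragments alone. The other intervals of these lists had higher expectations: Kdr 0.738, Pgf 1, Nrp2 1.11, Ctnnd1 3 and the other Ptprb interval 3.14. Among the 8 intervals of the somatic genes 5 were 0.961 Mb or farther from the next interval: Inhbb at 6.1 Mb, Cdh5 at 2.15 Mb, Gata6 at 1.59 Mb, Ctsl at 1.05 Mb and Kdr at 0.961 Mb. Over the list 85.8% of intervals had a neighbour closer than that of Kdr. The 2 Gata4 intervals were 23 kb apart, and the next gene with an interval within 100 kb of Gata4 was Blk, a kinase of B cells. The distal intervals of Kdr and Acta2 both lay inside long non-coding RNA genes that extend upstream of the coding gene, Gm32727 (35.9 kb) and Gm31355 (21.6 kb), and the Cdh5 and Inhbb intervals lay in no annotated gene.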
